A study of Mus musculus with 6 samples.

Results

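The genes described here are 36 members of phosphoinositide 3-kinase (PI3K), AKT and mechanistic target of rapamycin (mTOR) signalling, chosen by name from the 24935 genes of the deposited expression table. They run from the kinase that makes the lipid signal to the mTOR complexes, their inhibitors, their nutrient sensors and the kinases and translation repressors they act on. Expression was measured by sequencing polyA RNA from the left hippocampus of C57BL/6 mice, with 1 library per mouse. The 3 mice of the hyperoxia group were kept with their dams in 85% oxygen at normal pressure from postnatal day 2 (P2) to P14, the 3 mice of the air group were kept in room air, and every hippocampus was taken at P14. The labels give no genetic change, drug, sex or litter for either group, so the mice of a group may or may not be littermates. According to the paper that reported these libraries, pups of both sexes were exposed, and the sex of each sequenced mouse is not given. The deposited columns name the group and a number from 1 to 3 and not the animal, and every direction below follows the group named in the column. Values of single libraries are given in the order of these numbers, and ranges in parentheses after a log2 difference are its 95% interval. The directions are in doubt. For Mtor, Rictor and Aktip, and for the oligodendrocyte precursor marker Cspg4, the tables of the paper that reported these libraries print mRNA changes of the opposite sign. In that paper the stained area of the myelin protein CNPase in the CA1 region was lower in hyperoxia. Here 6 of 7 oligodendrocyte markers were lower. The gene of CNPase itself, Cnp, overlapped between the groups (log2 difference −0.30, limma adjusted p = 0.125). Among the genes higher in hyperoxia, the paper also lists the myelin gene MAL. Its mass spectrometry had the protein CSPG4 lower in hyperoxia, while Cspg4 mRNA was higher here (log2 difference 0.41, limma adjusted p = 0.00764). No gene was altered by design that could settle the directions. Air and hyperoxia below therefore mean the libraries labelled so. Every rise would be a fall, and every fall a rise, if the labels of the columns were exchanged.

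PI3K adds a phosphate to a membrane lipid when a growth factor receptor is active, and the lipid brings AKT and its activating kinase PDK1 to the membrane. AKT relieves the brake that the tuberous sclerosis complex (TSC) holds on the small GTPase RHEB, and RHEB switches on mTOR complex 1 (mTORC1) at the lysosome, where the Rag GTPases bring it when amino acids are present. Active mTORC1 drives protein synthesis through the S6 kinases and the 4E-BP repressors and holds back autophagy through the ULK kinases, and in the hippocampus this output serves the protein synthesis that lasting changes of synapses need.

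The libraries held 30384052 to 38746972 reads on genes. Hyperoxia library 2 stood apart, with the fewest reads and with its place on the second principal component (19.53% of the variance) at 38.73 against −5.09 and −22.56 in hyperoxia libraries 1 and 3. Values without it are given wherever they change a call of a named gene. Markers of hippocampal neurons were present in every library, and 3 of the 8 were lower in hyperoxia, with a summed normalized count of 32964 to 49614 in hyperoxia against 51722 to 55213 in air. Markers of oligodendrocytes were lower for 6 of 7 (145053 to 177755 against 211891 to 322603) and markers of endothelial cells higher for 4 of 6 (8198 to 9365 against 6355 to 6791). Thalamic markers were higher for 3 of 6 and neocortical markers for 3 of 6, and the 7 choroid plexus markers summed to 8215 in hyperoxia library 3 against 494 to 1424 in the other libraries, with 1 of the 7 called, Aqp1, higher. Of the remaining lists, 2 of 4 oligodendrocyte precursor markers and 1 of 7 microglial markers were higher, 2 of 6 astrocyte markers were higher and 1 lower, 1 of 6 interneuron markers was higher (Vip) and 1 lower (Pvalb), and 1 of 5 red blood cell markers was higher and 1 lower. No marker of these lists had a mean of 0. The part of these shifts in the results below was not tested, and in whole tissue fewer cells of a type and less RNA per cell cannot be told apart.

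Of the 36 members, 12 were called, that is, had a limma adjusted p under 0.05, which is 33.3% against 30.5% of all 17778 genes tested. The called members were 11 that were higher in hyperoxia, where 14.9% of all genes tested were called higher, and 1 that was lower, where 15.6% were called lower. The median log2 fold change (hyperoxia minus air, on log2 of the normalized count plus 1) was 0.13 over the members and −0.01 over all genes tested. The groups did not overlap for 14 members with hyperoxia higher and for 3 with hyperoxia lower, against 22.3% and 23.8% of all genes tested. All 36 members passed the filter of a mean normalized count of at least 10. The called members were spread over the route, at the catalytic and regulatory subunits of PI3K (Pik3ca, Pik3r1 and Pik3r3), PDK1 (Pdpk1), mTOR itself (Mtor), its inhibitor Deptor, the ribosomal S6 kinases (Rps6kb2 lower, Rps6ka2 and Rps6ka3 higher), Ulk2, and the Rag GTPases Rragc and Rragd. None was called in the TSC and RHEB step, among the partners that define mTORC1 or mTORC2, or among the 4E-BPs. The plot of the members by step shows the called members scattered along the route, with uncalled relatives beside most of them.

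**Figure D1:**
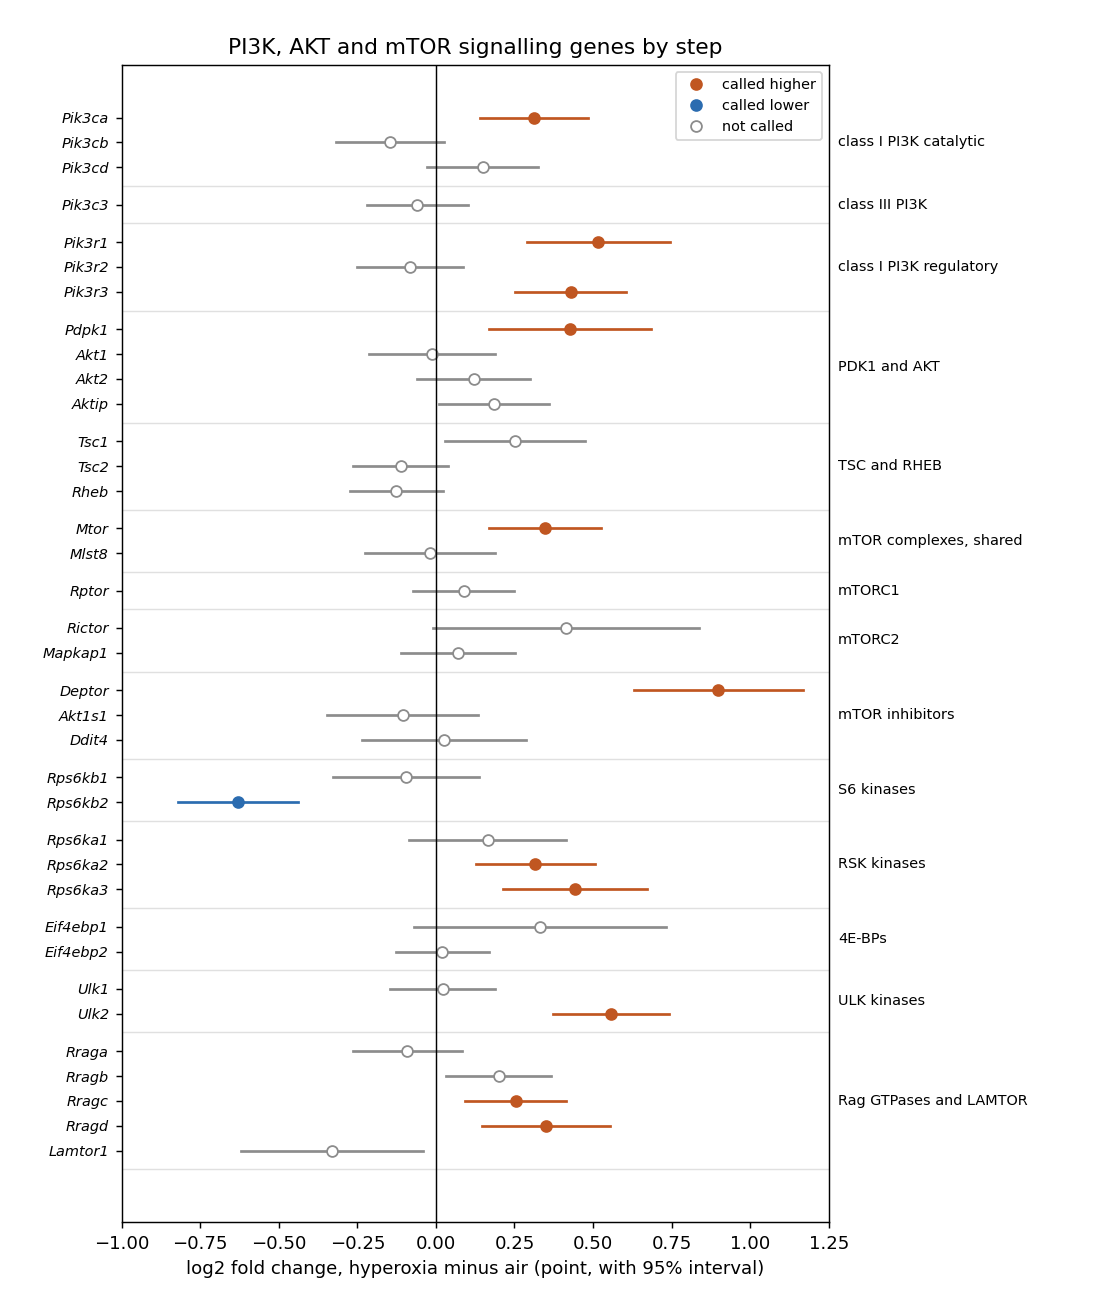
Log2 fold change of each of the 36 members (x axis, hyperoxia minus air, with its 95% interval from limma) grouped by step of the route, filled where called. The 11 members called higher lie from 0.25 (Rragc) to 0.90 (Deptor), Rps6kb2 lies alone on the lower side at −0.63, and the other 24 are open symbols.

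Among the genes for the subunits of class I PI3K, the enzyme that makes the lipid signal, 3 of 6 were called, all higher in hyperoxia. Pik3r1 encodes the regulatory subunit p85α, which holds the catalytic subunit stable and docks it on activated receptors, together with shorter regulatory forms from the same gene (ENSMUSG00000041417.15, chr13:101680563-101768217, minus strand). Its normalized count was 3663, 3653 and 4028 in air and 5971, 4604 and 5751 in hyperoxia. Every hyperoxia library lay above every air library, with library 2 the lowest of the 3. The means were 3781 ± 213 in air and 5442 ± 734 in hyperoxia (SD, n = 3), so that Pik3r1 rose by 0.52 on the log2 scale (SE 0.10, limma adjusted p = 0.00539), or 1.43-fold. Pik3r3 encodes p55γ, a regulatory subunit rich in brain (ENSMUSG00000028698.13, chr4:116221618-116303056, plus strand). It counted 1294, 1485 and 1484 in air and 1889, 1884 and 1956 in hyperoxia. The 3 hyperoxia libraries lay close together and above all of air. Pik3r3 rose by 0.43 on the log2 scale (SE 0.08, limma adjusted p = 0.00397). Both Pik3r1 and Pik3r3 were called under all 16 alternative settings, Pik3r1 at 0.32 after removal of the length and GC trend. The third regulatory gene, Pik3r2 for p85β, overlapped between the groups at 6804 to 7279 in air and 6251 to 7184 in hyperoxia. Its log2 fold change of −0.08 (95% interval −0.25 to 0.09) did not pass the test (limma adjusted p = 0.432).

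Of the catalytic subunits, Pik3ca, which encodes p110α, the form that answers insulin and growth factor receptors (ENSMUSG00000027665.13, chr3:32397671-32468486, plus strand), was called higher. The normalized counts were 1745, 1687 and 1764 in air and 2198, 1981 and 2282 in hyperoxia. The groups did not overlap. Pik3ca rose by 0.31 (SE 0.08, limma adjusted p = 0.0134). Pik3ca missed the threshold when air library 1, air library 2 or hyperoxia library 1 was left out (0.32, 0.29 and 0.30, adjusted p = 0.054, 0.068 and 0.055). The call was also lost when the dependence on exon length and GC content was removed within each library, where the log2 fold change was 0.08 (adjusted p = 0.33). Pik3cb, which encodes p110β, the form tied to G protein-coupled receptors, had 1246 to 1357 in air and 1108 to 1222 in hyperoxia, all hyperoxia libraries below all air libraries. Its log2 fold change of −0.15 (−0.32 to 0.02) was not called (limma adjusted p = 0.173), and after removal of the length and GC trend it was −0.28 and called (adjusted p = 0.011). Pik3cd, which encodes p110δ, best known from leukocytes, had 1128 to 1187 in air and 1192 to 1372 in hyperoxia, without overlap, and was not called at 0.15 (limma adjusted p = 0.181). Pik3c3, the class III enzyme VPS34 that makes the lipid mark of endosomes and forming autophagosomes, differed by −0.06 (−0.22 to 0.10, limma adjusted p = 0.557) with overlapping groups.

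At the next step, PDK1 was called and AKT was not. Pdpk1 encodes PDK1, which phosphorylates the activation loop of AKT, the S6 kinases and the RSK kinases (ENSMUSG00000024122.16, chr17:24073680-24150924, minus strand). The normalized count of Pdpk1 was 2652, 2775 and 2778 in air and 3936, 3002 and 4206 in hyperoxia. All 3 hyperoxia libraries were higher than air, but library 2 lay far nearer to air than libraries 1 and 3. Its rise was 0.43 on the log2 scale (SE 0.12, limma adjusted p = 0.0205). This call was lost without air library 1, 2 or 3 or without hyperoxia library 1 (log2 fold changes of 0.41, 0.44, 0.44 and 0.38, adjusted p = 0.085, 0.067, 0.059 and 0.081) and without the mean-variance trend (adjusted p = 0.071). After removal of the length and GC trend Pdpk1 was at 0.23 and called (adjusted p = 0.0271).

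Akt1, the AKT kinase with broad expression, had a normalized count of 6393, 6342 and 6162 in air and 5862, 7166 and 5791 in hyperoxia. Hyperoxia library 2 was above all air libraries and hyperoxia libraries 1 and 3 were below them. Akt1 differed by −0.01 on the log2 scale (95% interval −0.21 to 0.19, limma adjusted p = 0.927), and its sign was not stable, at 0.04 without hyperoxia library 3 and −0.11 without hyperoxia library 2. Akt2, the form best known from insulin action, had 3983, 3746 and 3908 in air and 4117, 4649 and 3909 in hyperoxia. Its hyperoxia libraries began within the range of air and ended above it. For Akt2 the difference was 0.12 (−0.06 to 0.30, limma adjusted p = 0.28). Aktip, whose product binds AKT, had 1742 to 1879 in air and 1882 to 2169 in hyperoxia and a log2 fold change of 0.18 (limma adjusted p = 0.102). The groups did not overlap for Aktip, and among the alternatives it passed once, when hyperoxia library 3 was left out (0.24, adjusted p = 0.044).

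No gene of the TSC and RHEB step was called. Tsc1 encodes hamartin, which stabilizes the complex, and had 1840.2, 1861 and 2054 in air and 2499.8, 1969 and 2409 in hyperoxia. Hyperoxia library 2 lay within the air range and the others lay above it. Its log2 fold change was 0.25 (limma adjusted p = 0.0831), and without hyperoxia library 2 it was 0.36 and called (adjusted p = 0.002). Tsc2 encodes tuberin, the GTPase-activating subunit that turns RHEB off, and differed by −0.11 (−0.26 to 0.04, limma adjusted p = 0.234). Rheb had 2783 to 2979 in air and 2563 to 2678 in hyperoxia, with all hyperoxia libraries lower, and differed by −0.13 (−0.27 to 0.02, limma adjusted p = 0.177). After removal of the length and GC trend, Tsc2 (−0.18, adjusted p = 0.021) and Rheb (−0.28, adjusted p = 0.0097) were called lower. The exons of Tsc2 share 693 bp with those of Pkd1 on the opposite strand, and whether the authors counted by strand is not stated.

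Of the parts of the mTOR complexes, only the kinase was called. Mtor encodes the catalytic subunit of both complexes (ENSMUSG00000028991.15, chr4:148448611-148557683, plus strand). Normalized counts of Mtor were 2982, 2836 and 2858 in air and 3825, 3322 and 3922 in hyperoxia. All hyperoxia libraries were above all air libraries, with library 2 lowest. Its means were 2892 ± 79.0 in air and 3689 ± 322 in hyperoxia (SD, n = 3), and Mtor rose by 0.35 by the labels of the columns (SE 0.08, limma adjusted p = 0.0104). Mtor was called under 15 of the 16 alternatives and missed the threshold without air library 2 (0.33, adjusted p = 0.054). Mlst8, whose product binds the kinase domain in both complexes, differed by −0.02 (−0.23 to 0.19, limma adjusted p = 0.892). Rptor, the scaffold that defines mTORC1 and holds its substrates, differed by 0.09 (−0.07 to 0.25, limma adjusted p = 0.374). Mapkap1, which encodes the mTORC2 subunit SIN1, differed by 0.07 (−0.11 to 0.25, limma adjusted p = 0.531). The groups overlapped for Mlst8, Rptor and Mapkap1.

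Rictor, the scaffold that defines mTORC2, the complex that completes the activation of AKT, turned on a single library. It had 1124, 1096 and 1322 in air and 1703, 1111 and 2038 in hyperoxia. Hyperoxia library 2 lay within the air range while hyperoxia libraries 1 and 3 lay well above it. The difference of 0.41 (−0.01 to 0.84) did not pass the test (limma adjusted p = 0.124). Without hyperoxia library 2 it was 0.66 and called (adjusted p = 4.8e-04), DESeq2 on the recovered reads called it as well (0.46, adjusted p = 0.033), and after removal of the length and GC trend it was 0.11 and not called.

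The largest change of any member was in an inhibitor of mTOR. Deptor binds mTOR in both complexes and restrains the kinase (ENSMUSG00000022419.15, chr15:55112317-55259271, plus strand). Its normalized count was low in air and 1.86-fold higher in hyperoxia, at 339, 279 and 281 in air and 626, 497 and 557 in hyperoxia. The lowest hyperoxia library exceeded the highest air library by a wide margin. The means were 299.7 ± 34.1 in air and 559.9 ± 64.5 in hyperoxia (SD, n = 3), a rise of 0.90 on the log2 scale (SE 0.12, limma adjusted p = 0.00112). Leaving out each library in turn kept it between 0.82 and 0.99, and Deptor was called under all 16 alternatives. The other inhibitor genes were not called. Akt1s1 encodes PRAS40, an mTORC1 inhibitor that AKT phosphorylates, and had 2076, 1973 and 2041 in air and 1765, 2259.8 and 1680.4 in hyperoxia. Hyperoxia library 2 was the highest of all libraries and libraries 1 and 3 the lowest. For Akt1s1 the difference was −0.11 (−0.35 to 0.14, limma adjusted p = 0.48), and without hyperoxia library 2 it was −0.24 and called (adjusted p = 0.011). Ddit4 encodes REDD1, a stress- and hypoxia-induced inhibitor that acts through TSC, and overlapped fully between the groups at 2092 to 2613 in air and 2032 to 2679 in hyperoxia. Its log2 fold change was 0.03 (−0.23 to 0.29, limma adjusted p = 0.88).

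The S6 kinases, which mTORC1 activates and which phosphorylate ribosomal protein S6, held the one member called lower. Rps6kb2 encodes S6K2 (ENSMUSG00000024830.16, chr19:4153991-4163354, minus strand). It had 1635, 1704 and 1748 in air and 1011, 1210.3 and 1072 in hyperoxia. All 3 hyperoxia libraries were far below air, and library 2 was again the nearest. Its means were 1696 ± 57.2 in air and 1098 ± 102 in hyperoxia (SD, n = 3), and the log2 difference was −0.63 (SE 0.08, limma adjusted p = 0.00114), or 0.646-fold. Leaving out single libraries kept Rps6kb2 between −0.70 and −0.57, and it was called under all 16 alternatives. Its exons share 1224 bp, 23.7% of their length, with Ptprcap on the opposite strand, a gene whose mean normalized count was 19.1. Rps6kb1, which encodes S6K1, the better studied form, had 2113, 2096 and 2254 in air and 2076, 1721 and 2294 in hyperoxia. The groups overlapped and hyperoxia library 2 was the lowest of all. Its log2 fold change was −0.09 (−0.33 to 0.14, limma adjusted p = 0.513), 0.02 without hyperoxia library 2, and −0.35 and called after removal of the length and GC trend (adjusted p = 0.0016).

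Of the 3 RSK genes, 2 were called higher. The RSK kinases take their signal from ERK and PDK1 and share S6 and TSC2 as substrates with the S6 kinases and AKT. Rps6ka3, which encodes RSK2 (ENSMUSG00000031309.15, chrX:159210307-159368244, plus strand), had 1298, 1272 and 1286 in air and 1949, 1482 and 1846 in hyperoxia. Air varied little and every hyperoxia library lay above it. Rps6ka3 rose by 0.44 on the log2 scale (SE 0.10, limma adjusted p = 0.0107), and the gene was called under all 16 alternatives, at 0.21 after removal of the length and GC trend (adjusted p = 0.0368). Rps6ka2, which encodes RSK3 (ENSMUSG00000023809.9, chr17:7170115-7303315, plus strand), had 1221, 1221 and 1287 in air and 1710.5, 1522 and 1424 in hyperoxia. The groups did not overlap, and here hyperoxia library 3 was the nearest to air. Rps6ka2 rose by 0.32 (SE 0.08, limma adjusted p = 0.02). Rps6ka2 missed the threshold when air library 1, air library 2 or hyperoxia library 1 was left out (0.30, 0.30 and 0.24, adjusted p = 0.081, 0.083 and 0.082) and without the mean-variance trend (adjusted p = 0.055). Rps6ka1, which encodes RSK1, had overlapping groups and a log2 fold change of 0.16 (−0.09 to 0.42, limma adjusted p = 0.289).

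Neither 4E-BP gene was called. The 4E-BPs bind the cap-binding factor eIF4E and block initiation until mTORC1 phosphorylates them, and Eif4ebp2 is the main form of the brain. Eif4ebp2 had 2398 to 2524 in air and 2419 to 2561 in hyperoxia, a log2 difference of 0.02 with an interval of −0.13 to 0.17 (limma adjusted p = 0.837). Eif4ebp1 was the member with the lowest counts, 65.9, 79.4 and 62.6 in air and 84.9, 103 and 75.3 in hyperoxia. The lowest hyperoxia library fell within air. Its log2 fold change of 0.33 had a wide interval of −0.07 to 0.73 (limma adjusted p = 0.187).

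Of the autophagy kinase genes, Ulk2 was called higher and Ulk1 was not. Ulk2 (ENSMUSG00000004798.14, chr11:61775649-61855073, minus strand), which like Ulk1 starts autophagosome formation when mTORC1 is low, had 3410.1, 3524 and 3566 in air and 5394, 4599 and 5504 in hyperoxia. All hyperoxia libraries were above all air libraries by more than the spread within either group. The means were 3499.8 ± 80.5 in air and 5165 ± 494 in hyperoxia (SD, n = 3), with a rise of 0.56 on the log2 scale (SE 0.08, limma adjusted p = 0.00162), and Ulk2 was called under all 16 alternatives. Ulk1 had 3460.0, 3145 and 3581 in air and 3462, 3564 and 3301 in hyperoxia. The groups overlapped. Ulk1 differed by 0.02 (−0.15 to 0.19, limma adjusted p = 0.849).

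Among the lysosomal members, Rragc and Rragd were called higher. The Rag GTPases work as pairs of RagA or RagB with RagC or RagD, and LAMTOR1 anchors the complex that holds them on the lysosome. Rragc (ENSMUSG00000028646.16, chr4:123917446-123936997, plus strand) had 1512, 1690.2 and 1598 in air and 1912, 1919 and 1886 in hyperoxia. Its hyperoxia libraries lay close together and above all of air. Rragc rose by 0.25 (SE 0.07, limma adjusted p = 0.0245). Rragd (ENSMUSG00000028278.14, chr4:32983037-33022180, plus strand) had 1987, 1977 and 2099.5 in air and 2522, 2321 and 2928 in hyperoxia. Here too the groups did not overlap. The rise of Rragd was 0.35 (SE 0.09, limma adjusted p = 0.0174). Both calls were lost without the mean-variance trend (adjusted p = 0.057 and 0.058) and without air library 1 (0.21, adjusted p = 0.11, and 0.34, adjusted p = 0.074). Rragc also lost its call without air library 3 or hyperoxia library 1 (both 0.25, adjusted p = 0.081 and 0.076) and Rragd without air library 2 (0.34, adjusted p = 0.075).

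The other Rag genes and Lamtor1 were not called. Rragb had 1959 to 2253 in air and 2354 to 2464 in hyperoxia, without overlap, and a log2 fold change of 0.20 (limma adjusted p = 0.068) that was 0.20 and called after removal of the length and GC trend (adjusted p = 0.044). Rraga differed by −0.09 (−0.26 to 0.08, limma adjusted p = 0.397). Lamtor1 had 2936, 2864 and 2701 in air and 2215, 2792 and 1852 in hyperoxia. Hyperoxia library 2 lay within the air range and libraries 1 and 3 below it. Lamtor1 differed by −0.33 (−0.62 to −0.04, limma adjusted p = 0.081), and without hyperoxia library 2 it was −0.48 and called (adjusted p = 8.7e-04).

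The promoters of the lysosomal genes and Rheb are shown because they held every match of the E-box CACGTG, the palindromic hexamer bound by basic helix-loop-helix factors such as TFEB, among the member promoters. In the 250 bases before the start, 4 of the 46 RefSeq promoters (GRCm38.p6) of the 31 members that had one held the hexamer, against 6.02% of all 32851 promoters. The members without a promoter in the table were Pik3c3, Deptor, Rps6kb2, Rps6ka3 and Eif4ebp1. The 150 bases next to the start are printed 5′ to 3′ on the strand of the gene, with the hexamer in capitals, and Rragd is shown beside its relative Rragc as a called Rag gene without a match.
Rragc, chr4:123917283-123917432, plus strand: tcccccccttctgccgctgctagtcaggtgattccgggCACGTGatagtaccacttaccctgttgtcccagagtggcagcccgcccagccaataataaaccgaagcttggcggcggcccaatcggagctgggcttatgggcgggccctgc
Rragd, chr4:32982848-32982997, plus strand: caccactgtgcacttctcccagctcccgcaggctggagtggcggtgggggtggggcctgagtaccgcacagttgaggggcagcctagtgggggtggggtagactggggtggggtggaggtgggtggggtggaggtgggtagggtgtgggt
Rragb, chrX:153139808-153139957, plus strand: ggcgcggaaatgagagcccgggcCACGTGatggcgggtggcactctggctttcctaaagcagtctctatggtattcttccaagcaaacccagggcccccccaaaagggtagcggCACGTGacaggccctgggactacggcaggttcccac
Lamtor1, chr7:101905687-101905836, plus strand: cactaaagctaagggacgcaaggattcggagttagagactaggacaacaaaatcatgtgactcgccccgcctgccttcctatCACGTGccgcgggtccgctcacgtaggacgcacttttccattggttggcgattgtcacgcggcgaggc
Rheb, chr5:24842362-24842511, minus strand: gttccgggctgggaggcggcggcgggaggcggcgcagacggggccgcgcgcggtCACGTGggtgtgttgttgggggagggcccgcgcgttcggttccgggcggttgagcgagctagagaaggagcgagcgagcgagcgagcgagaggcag
The first base of the hexamer lies 112 bases before the start in Rragc, 127 and 36 bases before it in Rragb, 68 in Lamtor1 and 96 in Rheb. The 4 genes with a match did not share a direction, since Rragc was called higher, Rragb was not called at 0.20, and Rheb and Lamtor1 were not called at −0.13 and −0.33. A FOXO site (TGTTTAC or, on the other strand, GTAAACA) was in 3 member promoters, of Akt1 and Mapkap1, against 3.17% of all promoters. The Mapkap1 promoters overlap (chr2:34406521-34406770 and chr2:34406601-34406850) and hold the same site, which is thus counted more than once. A cyclic AMP response element (TGACGTCA, the same on both strands) was in none, against 1.55%. These 3 motifs were chosen after the values were seen, and a match is a string of letters and not a site shown to be bound.

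Across the 12 called members, hyperoxia library 2 was the hyperoxia library nearest to air for 10, library 3 for 2 and library 1 for 0. The plot of the called members by library shows this order, with Rragc and Rps6ka2 as the exceptions.

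**Figure D2:**
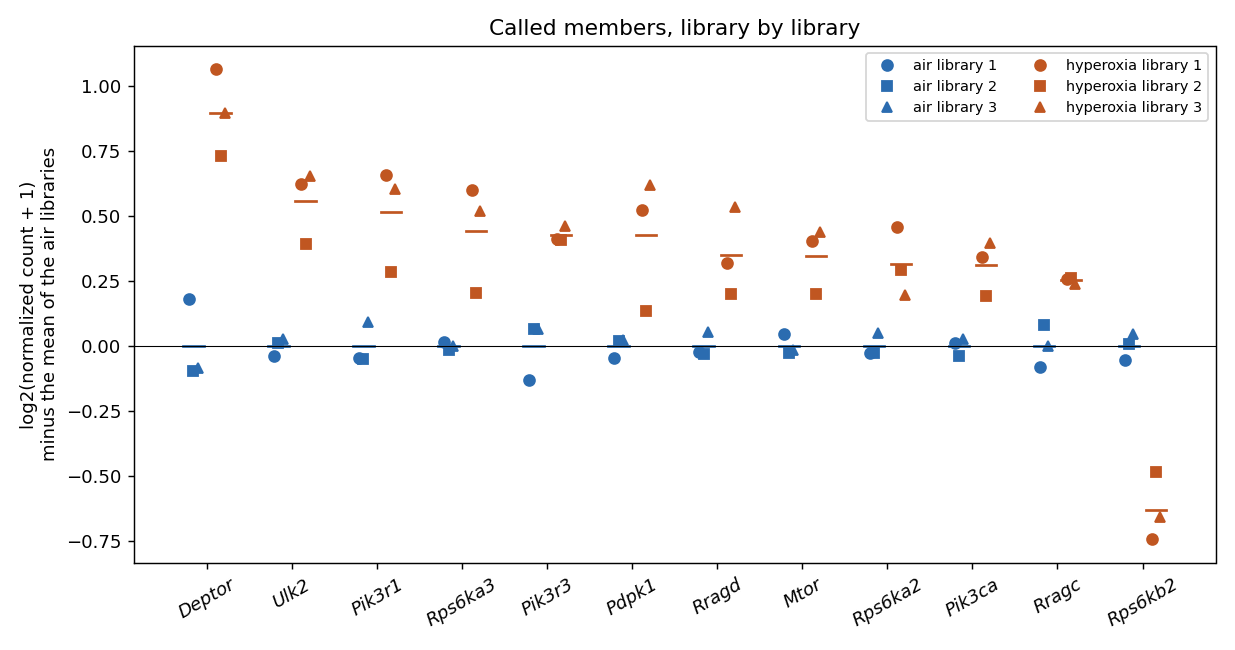
Log2 of the normalized count plus 1 in each library minus the mean of the 3 air libraries (y axis), for the 12 called members, with air in blue, hyperoxia in orange, a symbol for each library number and a bar for the group mean. No orange point falls among the blue points of its gene, and the orange square, hyperoxia library 2, is the nearest to air for 10 of the 12.

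Relatives that do the same or a paired task were compared as 11 pairs, by their log2 ratio within each library. The groups did not overlap for 7 of the 11 pairs. Each of the 7 had an exact two-sided permutation p of 0.1, the smallest that 3 against 3 allows (Benjamini-Hochberg adjusted p = 0.157 over the 11 pairs), so none could pass 0.05. The share without overlap among other pairs of genes was not computed, so the count cannot be set against it. Of all single genes tested, 22.3% did not overlap with hyperoxia higher and 23.8% with hyperoxia lower. The largest difference was in the ratio of Pik3r1 to Pik3r2, −0.89 ± 0.10 in air and −0.29 ± 0.30 in hyperoxia (SD, n = 3), a difference of 0.60 on the log2 scale. Between the catalytic subunits, the ratio of Pik3ca to Pik3cb was 0.43 ± 0.07 in air and 0.89 ± 0.05 in hyperoxia, a difference of 0.46. For the ULK kinases, the log2 ratio of Ulk1 to Ulk2 was −0.05 ± 0.10 in air and −0.58 ± 0.19 in hyperoxia, a difference of −0.54, and all 3 hyperoxia libraries lay below air.

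The S6 kinases had a log2 ratio of Rps6kb1 to Rps6kb2 of 0.35 ± 0.04 in air and 0.88 ± 0.32 in hyperoxia, a difference of 0.54. Hyperoxia library 2, at 0.51, stood nearer to air than hyperoxia libraries 1 and 3, at 1.04 and 1.10. The ratio of Tsc1 to Tsc2 differed by 0.36, that of Rraga to Rragb by −0.29 and that of Akt1 to Akt2 by −0.13, all without overlap. Although neither AKT gene was called alone, Akt1 was thus lower relative to Akt2 in every hyperoxia library than in any air library. The ratios were not recomputed after removal of the length and GC trend. Singly, after that step, Akt1 was at 0.07 and Akt2 at 0.10, Pik3r1 at 0.32 and Pik3r2 at −0.01, and Rps6kb1 at −0.35 and Rps6kb2 at −0.58. The groups overlapped for Rptor to Rictor (−0.33, exact p = 0.4), Rragc to Rragd (−0.10, exact p = 0.4), Rps6ka1 to Rps6ka2 (−0.15, exact p = 0.4) and Eif4ebp1 to Eif4ebp2 (0.31, exact p = 0.2).

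**Figure D3:**
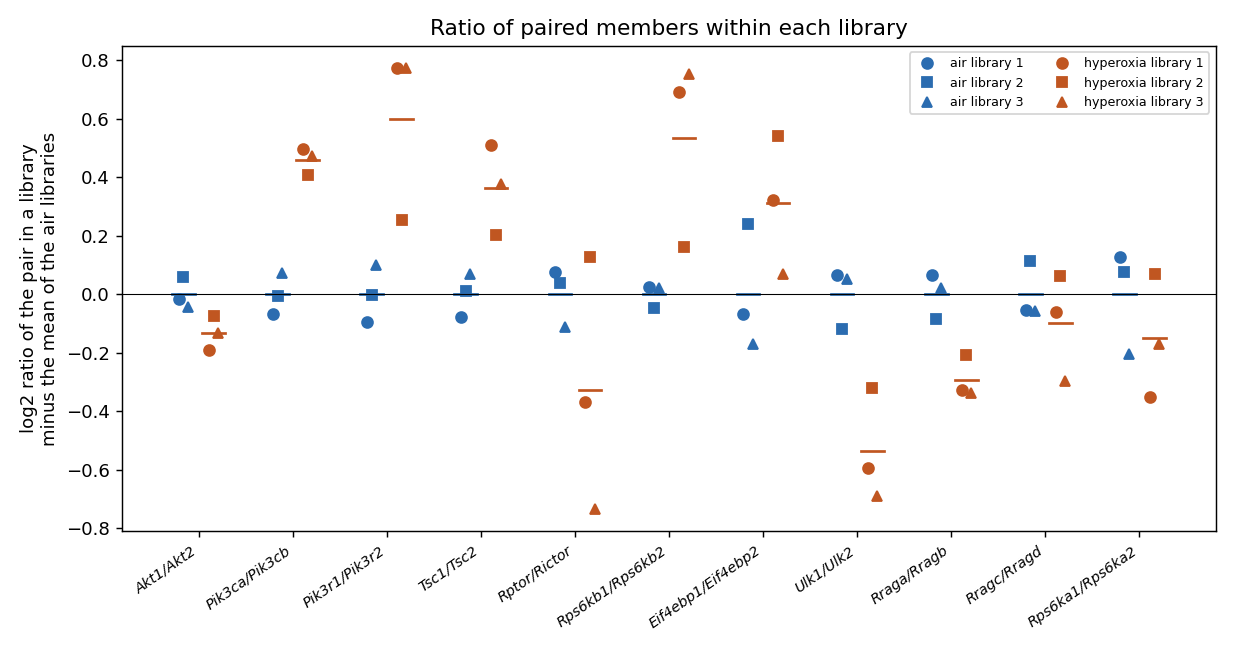
Log2 ratio of the first to the second gene of each of 11 pairs in each library, minus the mean ratio of the 3 air libraries (y axis), with air in blue, hyperoxia in orange and a bar for the group mean. Pik3r1/Pik3r2 has the largest positive difference (0.60) and Ulk1/Ulk2 the largest negative one (−0.54), and blue and orange overlap for Rptor/Rictor, Eif4ebp1/Eif4ebp2, Rragc/Rragd and Rps6ka1/Rps6ka2.

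Levels were compared between genes as normalized counts per 1000 bases of exon. Rraga was the highest member in air at 2214 ± 113 (SD, n = 3), followed by Pik3r2 at 1681 ± 57.5, Akt1 at 1537 ± 29.6 and Ddit4 at 1340.0 ± 148. In air the ranges of mean ± SD of these 4 did not overlap, while in hyperoxia Pik3r2 at 1591 ± 116, Akt1 at 1531 ± 189 and Ddit4 at 1369 ± 190.0 overlapped. The lowest levels were those of Eif4ebp1 at 31.6 ± 4.04 and Deptor at 33.8 ± 3.84, which did not differ beyond their spread in air. In hyperoxia they did, with Deptor at 63.1 ± 7.26 and Eif4ebp1 at 40.0 ± 6.42. The most abundant regulatory subunit gene of PI3K was Pik3r2 in both groups, at 1681 ± 57.5 in air and 1591 ± 116 in hyperoxia, against 375 ± 21.2 and 539.9 ± 72.8 for Pik3r1. Per length Ulk1 stood at 523 ± 34.7 and Ulk2 at 586 ± 13.5 in air, and in hyperoxia they stood at 531 ± 20.4 and 864 ± 82.6.

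Transcript length and GC content moved with the groups. Over the 4434 genes at the long end of all genes tested (the upper quartile of exon length), the median deviation from a gene's mean was −0.08, −0.09 and −0.03 in air and 0.09, −0.05 and 0.15 in hyperoxia on the log2 scale, and hyperoxia library 2 thus lay on the side of air. The 11 members called higher had a median exon length of 8874 bp and a median GC content of 45.8%, against 5125 bp and 52% for the 24 not called and 3991 bp and 49.5% over all genes tested. When the trend on both was removed within each library, 11 members were called higher and 5 lower, in place of 11 and 1. Over all genes, the same step left the higher calls at 2644 (2643 before) and raised the lower calls from 2782 to 3478, with 34.5% called in all. Pik3ca dropped out and Rragb, Pik3cb, Tsc2, Rheb and Rps6kb1 came in, the last 4 of them lower. The log2 fold changes of Deptor (0.71), Ulk2 (0.47), Pik3r3 (0.34), Pik3r1 (0.32), Pdpk1 (0.23) and Rps6ka3 (0.21) shrank and remained called, and that of Rps6kb2 was −0.58. The plot before and after the correction shows that most members called higher moved toward 0.

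**Figure D4:**
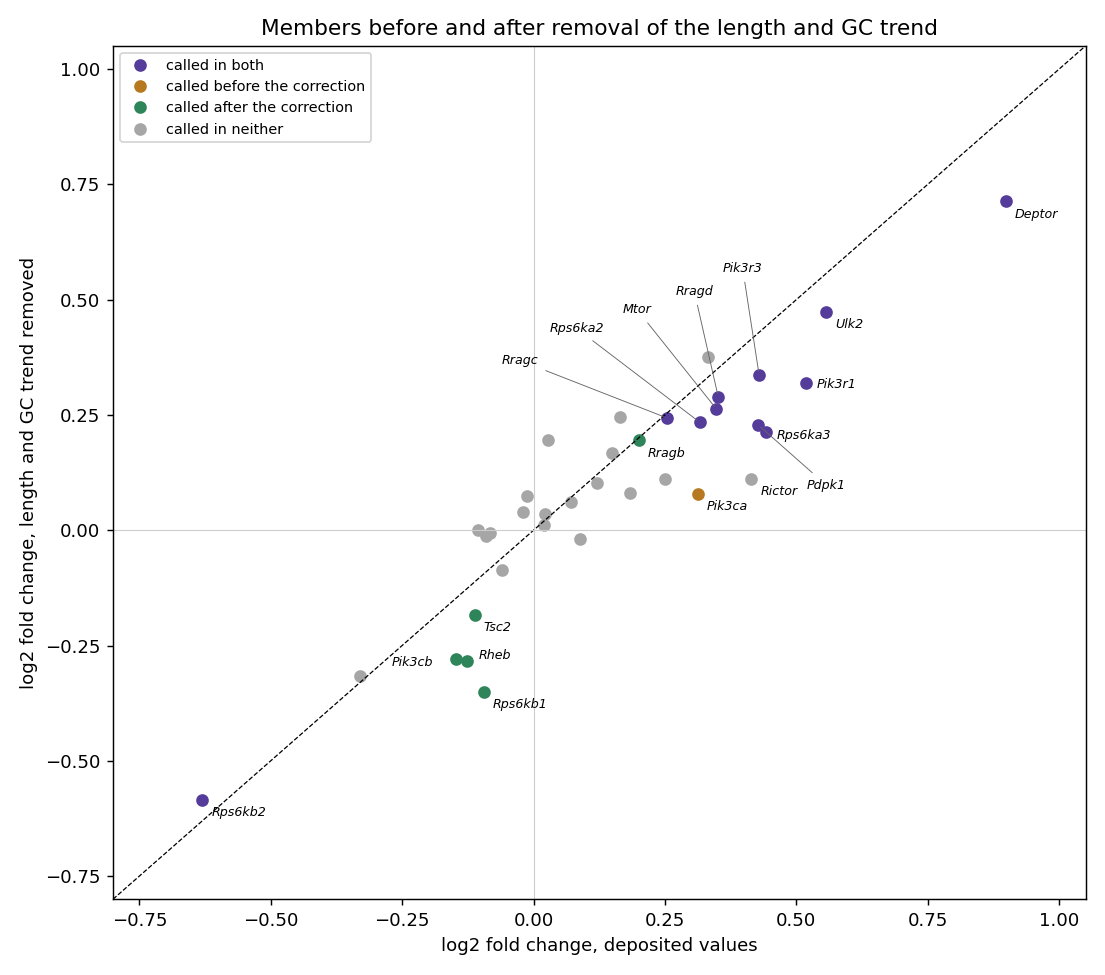
Log2 fold change of each member from the deposited values (x axis) against that after removal of the length and GC trend (y axis), coloured by whether it was called, with the dashed line of equal values. Deptor moves from 0.90 to 0.71 and Pik3ca from 0.31 to 0.08, while Rps6kb1 moves from −0.09 to −0.35.

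The number of calls also turned on single libraries. Without air library 1 or 2, 6 members were called higher, and without hyperoxia library 1 it was 7, in settings where 17.2%, 17.3% and 19% of all genes tested were called. Without hyperoxia library 2, 13 members were called higher and 3 lower, where 43.7% of all genes tested were called. Of the 12 called members, 6 (Pik3r1, Pik3r3, Deptor, Rps6kb2, Rps6ka3 and Ulk2) were called under all 16 alternatives, and all 12 kept their sign in every one. Of the 24 not called, 14 were called under none. At an unadjusted p under 0.05 from limma the count of members was 16. The share of all genes tested at that threshold was not computed, so the count cannot be set against it.

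A further 111 genes of the pathway outside the members were listed by function, of which 109 were tested. Of these, 18 were called higher and 17 lower (32.1% in all), with a median log2 fold change of −0.01. Among 10 receptors and adaptors, 4 were higher and 1 lower, led by the adaptor Shc3 (1.11, limma adjusted p = 0.00271), Irs1 (0.72, 0.033) and Gab2 (0.67, 0.00102). The 11 other PI3K subunit genes tested had 3 higher and 1 lower, led by Pik3c2a (0.85, limma adjusted p = 0.00819), Pik3r5 (0.72, 0.00554) and Pik3cg (0.41, 0.0383). Of 9 phosphatases of the lipid and of AKT, Phlpp2 was higher (0.33, limma adjusted p = 0.0227) and Phlpp1 (−0.21, 0.0332) and Inpp5e (−0.34, 0.00949) lower.

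Downstream of AKT, 3 of 13 substrate and SGK genes were higher and 2 lower, led by Sgk3 (0.69, limma adjusted p = 0.00314), the transcription factor Foxo3 (0.59, 0.00169) and the kinase Gsk3a (−0.41, 0.00302). The 10 genes of AMPK, the energy sensor that opposes mTORC1, and of its activator LKB1 had 1 higher, the catalytic subunit Prkaa2 (0.57, limma adjusted p = 0.00755), and 4 lower, led by Prkag1 (−0.39, 0.0162) and Strada (−0.33, 0.00959). Among 9 further parts of the TSC and mTOR complexes, the one called was Ddit4l (0.73, limma adjusted p = 0.00246), the relative of the uncalled member Ddit4. Of 22 Ragulator, GATOR and nutrient sensor genes, 2 were higher and 3 lower, led by Sesn3 (0.62, limma adjusted p = 0.00274), Fnip1 (0.56, 0.0196) and Sesn2 (−0.44, 0.00596).

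On the output side, 2 of 13 translation genes were called, Eif4g2 higher (0.32, limma adjusted p = 0.0111) and Eif4a2 lower (−0.30, 0.0152). Of 7 genes of the ULK complex and the TFEB family, Atg101 (−0.43, limma adjusted p = 0.0278) and Tfe3 (−0.25, 0.0298) were lower. The 5 other RSK and MSK kinases had Rps6ka6 (0.90, limma adjusted p = 0.00107) and Rps6ka5 (0.56, 0.0107) higher and Rps6kl1 (−0.24, 0.0277) lower, beside the members Rps6ka2 and Rps6ka3. Of these 26 named genes, 11 were called under all 16 alternatives (Shc3, Gab2, Pik3c2a, Pik3r5, Foxo3, Gsk3a, Prkaa2, Ddit4l, Sesn3, Sesn2 and Rps6ka6). The other 15 were called under 6 to 15 of them, and leaving out air library 1 or 2 ended 12 and 13 of the calls. Leaving out hyperoxia library 2 ended 1, that of Pik3cg (0.37, adjusted p = 0.054).

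**Figure D5:**
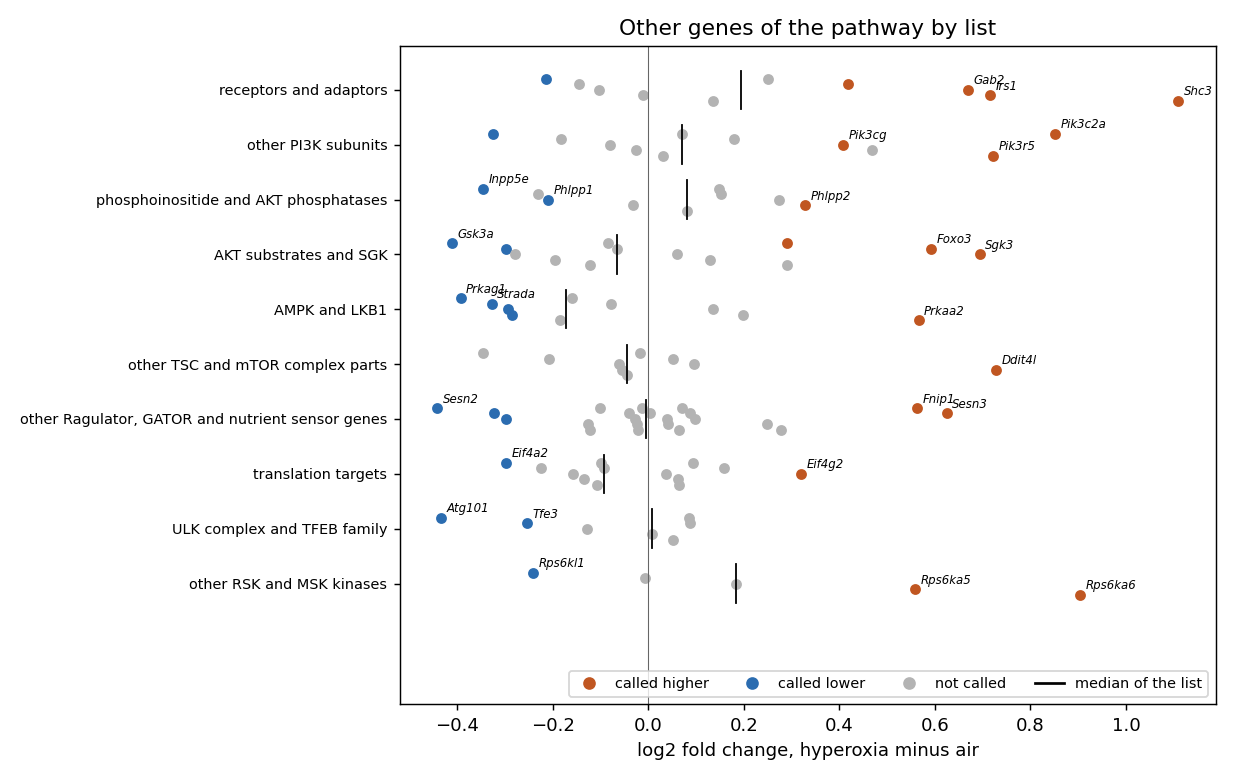
Log2 fold change (x axis, hyperoxia minus air) of the 109 other pathway genes tested, in 10 lists by function, orange where called higher, blue where called lower and grey where not called, with a bar at the median of each list. Shc3 (1.11) lies farthest to the right and Sesn2 (−0.44) farthest to the left, and the medians run from −0.17 for AMPK and LKB1 to 0.19 for receptors and adaptors.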

How the data were processed

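RNA of the left hippocampus of 3 air and 3 hyperoxia mice (P14) was made into strand-specific polyA libraries by the authors and read as paired ends. The submitters' processing notes name FastQC, STAR 2.5.3a, HTSeq and DESeq2. For the genome build, the annotation and the use of strand in counting, nothing was given in the sources used here. The deposited signal per gene and library is a read count divided by 1 size factor per library, and 100% of values were whole reads within 0.01 after division by the value of 1 read. A second deposited table holds the authors' own comparison (fold changes and p-values) and was not used.

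Genes with a mean of at least 10 (17778 of 24935) were tested on log2(value + 1) with limma 3.58.1 (R 4.3.3, mean-variance trend), hyperoxia minus air, with Benjamini-Hochberg adjustment over all of them and a threshold of 0.05. This scale understates changes of genes with low counts. With 3 libraries per group, the spread between mice sets the precision. Replicate pairs differed by a chi-square per gene of 6.04 to 42.4, so none was a repeat. The 16 alternatives changed the pseudocount (0.5 or 5), the filter (none, or a mean of 50 or more), the scaling (TMM or quantile) or the mean-variance trend (left out), or used edgeR 4.0.16 and DESeq2 1.42.0 on recovered reads (5501 and 5611 genes called, against 5425), removed the trend on exon length and GC content (mgcv 1.9.3), or left out 1 library. Ratios of pairs were tested by exact permutation (scipy 1.17.1), with tables handled in Python 3.11.15 with pandas 2.3.3 and numpy 2.4.6. Scripts were tested on simulated data. Positions, lengths and overlaps are those of GENCODE release M21 on GRCm38, which held 99.68% of the identifiers (85.1% in the same version), and promoters those of RefSeq on GRCm38.p6. The members and lists were chosen with earlier results of these data known. Named genes are all members and up to 3 called genes per list with the largest change. Exons of 10 members overlap another gene, all on the opposite strand. Single outlying libraries could not be tested for with 3 per group.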

Additional observations from a re-analysis of the deposited data

How the results depend on the processing

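Over the 36 members and 16 alternatives, 529 of 576 values kept their direction and their side of the threshold. Calls were lost mainly where a library was left out, and the cause was not tested. Without the mean-variance trend 7 members were called higher, where 23.8% of all genes tested were called, against 30.5% with the trend. The count called higher was 6 to 13 with a library left out, the count called lower 1 to 3, and the count called in all 7 to 16. In these settings 17.2% to 43.7% of all genes tested were called. Removal of the length and GC trend raised the count called lower to 5, a split of 11 to 5 in place of 11 to 1, and over all genes the higher share of the calls went from 48.7% to 43.2%. Among the other pathway genes, 8 were called lower without the mean-variance trend, and with a library left out 11 to 29 were called higher and 2 to 23 lower. The share called over all genes tested moved as well, to 23.8% without the trend and to 17.2% to 43.7% with a library left out. Some uncalled values changed sign. With a library left out, Akt1 ran from −0.112 to 0.041, Mlst8 from −0.074 to 0.032, Ddit4 from −0.057 to 0.142, Rps6kb1 from −0.188 to 0.020, Ulk1 from −0.033 to 0.061 and the log2 ratio of Rragc to Rragd from −0.179 to 0.001. Akt1 was also 0.017 under quantile normalization, 0.003 in DESeq2 and 0.073 after the length and GC correction, which left Mlst8 at 0.040 and Rptor at −0.018. No paired analysis was possible because the labels number the 6 animals from 1 to 6, so the groups share no replicate number, and the deposited columns are not tied to an animal. Counting error weighs most on Eif4ebp1, the member with the lowest normalized counts (at most 103).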
